A study of Homo sapiens with 22 samples.

Results

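The mitotic genes described here are 43 genes whose products carry cells into and through mitosis. They were taken by symbol from a list that was drawn up with earlier results of these data known. All 43 symbols had a row in each gene table, out of 33538 genes for untreated WM989 and 36601 genes for WM983B and for the treated WM989 cells. WM989 and WM983B are melanoma cell lines in which the study distinguished a drug-susceptible state and a primed state, whose cells are more likely to survive targeted therapy. Untreated WM989 cells with lineage barcodes were profiled by droplet scRNA-seq in 8 chip wells, which came from a mixed population and from a sort of EGFR- and NGFR-high cells that had been expanded, so that several wells share a culture, and WM983B cells were profiled without treatment in 1 library. In the treatment experiment, barcoded WM989 cells were sorted into a well, expanded and divided over plates that were left untreated (Control) or received TGFB1, a cytokine, TGFBRi (LY2109761, an inhibitor of TGFB receptors) or PI3Ki (GDC-0941, an inhibitor of PI3 kinase), with 2 samples carried in parallel as replicates, r1 and r2. ATAC-seq, which marks open chromatin, was run on WM989 cells sorted as EGFR_High, EGFR-NGFR-High, NGFR-High and Mix, with 3 libraries per sort. The sample labels call the last sort Mix, while the study's methods describe cells negative for both markers, and the name of the labels is kept here. With 2 parallel samples of 1 cell line, p-values of the treatment experiment measure only the spread between these libraries. The sample labels name the libraries of a treatment Mix and Primed, and which of them is r1 or r2 was not settled.

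Mitosis begins when CDK1, bound to cyclin B, is released from inhibitory phosphorylation, and it ends when the anaphase-promoting complex (APC/C) destroys cyclin B and securin. Between these switches the kinases of the PLK and aurora families build the spindle, the checkpoint kinases hold the APC/C until every kinetochore is attached, and kinesins and actin regulators separate the chromosomes and the daughter cells. The mRNAs of these genes accumulate in G2 because their promoters are repressed earlier in the cycle, largely through a short element known as the CHR that binds the MuvB complex, often beside CCAAT boxes that bind NF-Y.

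Promoter sequence was examined first. RefSeq promoters on GRCh38.p14 were matched for 37 of the 43 members; AURKA, FAM83D, BIRC5, UBE2C, TTK and TPX2 had no entry. Each window ran from 250 bases before to 50 bases after the start of transcription. TTTGAA, taken here as the CHR, and CCAAT, the NF-Y box, were searched on both strands. No other sequence was searched as a CHR. In the printed stretches, matches of 1 motif share no base with matches of the other. TTTGAA was in the windows of 28 members (75.7%), against 18.2% of all 27305 genes with an entry, and CCAAT was in 33 members (89.2%), against 39.7% of all genes. Windows with both motifs belonged to 26 members (70.3%) and to 7.26% of all genes, and windows with at least 2 CCAAT boxes to 62.2% and 12.9%. The 37 members had 44 windows, and a site in overlapping windows of 1 gene was counted in each. Counted so, the first base of TTTGAA lay at a median of 29 bases before the start over 44 matches. That of CCAAT lay at a median of 82 bases before it over 80 matches. Among 16 S-phase genes with an entry, 1 (6.25%) held TTTGAA and 75% held CCAAT, while 22 of 34 further genes of kinetochores and condensin (64.7%) held TTTGAA. Other lists lay between these, with TTTGAA in 29.4% of 17 APC/C genes and 45.5% of 11 regulators of the MuvB and FOXM1 group. It was in 50% of 6 CDK1 inhibitory kinases and phosphatases. The following 5 promoters, from 150 bases before to 30 bases after the start, show a cluster of boxes upstream of a CHR (CCNB2), the member that fell most with PI3Ki (PRC1), the kinase PLK1, a cyclin B promoter without TTTGAA (CCNB1) and a CHR between CCAAT boxes (CDC20); capitals mark TTTGAA and CCAAT on the strand of the gene.
CCNB2 (chr15:59104996-59105175, plus strand): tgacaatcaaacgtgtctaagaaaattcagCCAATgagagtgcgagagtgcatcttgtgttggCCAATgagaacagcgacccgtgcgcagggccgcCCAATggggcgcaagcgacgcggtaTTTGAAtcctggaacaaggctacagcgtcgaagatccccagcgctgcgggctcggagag
PRC1 (chr15:90994506-90994685, minus strand): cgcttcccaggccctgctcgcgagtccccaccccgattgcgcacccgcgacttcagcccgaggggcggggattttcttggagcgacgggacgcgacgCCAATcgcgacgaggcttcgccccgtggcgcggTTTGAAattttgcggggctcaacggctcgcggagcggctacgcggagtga
PLK1 (chr16:23678739-23678918, plus strand): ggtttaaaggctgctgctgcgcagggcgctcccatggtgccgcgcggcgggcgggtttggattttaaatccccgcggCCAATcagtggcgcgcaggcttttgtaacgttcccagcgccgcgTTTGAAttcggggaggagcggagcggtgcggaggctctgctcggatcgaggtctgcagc
CCNB1 (chr5:69167000-69167179, plus strand): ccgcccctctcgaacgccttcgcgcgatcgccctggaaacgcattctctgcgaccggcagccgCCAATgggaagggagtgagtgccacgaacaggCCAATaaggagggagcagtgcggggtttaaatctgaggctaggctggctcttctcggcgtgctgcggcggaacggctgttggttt
CDC20 (chr1:43358831-43359010, plus strand): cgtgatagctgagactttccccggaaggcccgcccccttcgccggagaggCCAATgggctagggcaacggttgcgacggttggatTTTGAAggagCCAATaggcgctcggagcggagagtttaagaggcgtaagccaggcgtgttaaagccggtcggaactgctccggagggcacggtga
A match to a motif describes the letters of the window and does not show that a factor binds there.

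Levels were read from unique molecular identifiers (UMIs), each of which stands for a captured RNA molecule. Untreated WM989 gave 12531 cells with library medians of 45287 to 111820 UMIs per cell, WM983B gave 1449 cells (731 primed and 718 drug-susceptible) with a median of 66668, and the treatment experiment gave 40021 cells with library medians of 13013 to 21720.5 UMIs and 3692 to 6273 cells per library. Of the cell barcodes, 19 of 12512 in untreated WM989 and 194 of 39827 in the treatment experiment occurred in more than 1 library. All 6 melanocyte lineage genes examined exceeded 10 CPM in each experiment. Of 8 leukocyte, endothelial and keratinocyte markers, 1 to 2 were at 0 in an experiment, and their summed level stayed between 0.456 and 21.8 CPM per library.

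The members followed the cell cycle phase that the authors had assigned to each cell. Phases were called on the same counts, and 27 of the 43 members are in the G2/M gene list that Seurat uses by default, so these levels are a description without a test. CPM of summed UMIs was higher in G2M than in G1 cells for every member, with a median ratio of 8.81 in untreated WM989, 13.2 in WM983B and 11.3 in the treatment experiment. The 16 members outside that list had median ratios of 10.1, 12.0 and 12.1. CCNB1, the main mitotic cyclin, stood at 41.2 CPM in G1, 28.6 in S and 282 in G2M cells of the treatment experiment. PLK1 went from 9.20 CPM in G1 to 11.3 in S and 118 in G2M. CDK1, by contrast, was already at 50.6 CPM in S, from 6.20 in G1, and reached 102 in G2M. MKI67, a coat protein of mitotic chromosomes used as a marker of proliferation, likewise went from 54.9 through 193 to 569 CPM. Levels thus rank G1, S and G2M in ascending order for 39 of 43 members there, and for 42 in each of the other experiments. PTTG1, which encodes securin, the inhibitor of the protease that splits sister chromatids, had the smallest G2M to G1 ratio of the treatment experiment, 1.60, at 268 CPM in G1 and 428 in G2M.

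Across the authors' clusters, each member's log2(CPM + 1) correlated with the mean of the others at a median Pearson's r of 0.966 over 11 clusters of untreated WM989 and 0.954 over 13 clusters of the treatment experiment. These points share depth and cell cycle composition. PTTG1 (0.779 and 0.667) and CDK1 (0.818 and 0.776) were the members least like the rest. Summed over all 43 genes, the level ran from 781 CPM in cluster 4 to 10217 in cluster 7 of untreated WM989, and from 678 CPM in cluster 6 to 11689 in cluster 7 of the treatment experiment.

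In each WM989 experiment 2 drug-susceptible clusters consisted almost wholly of G2M cells, and they differed in which mitotic genes were highest. Clusters 6 and 7 of untreated WM989 had 7246 and 10217 summed CPM. Their counterparts in the treatment experiment, clusters 5 and 7, had 7320 and 11689 summed CPM, with 94.98% and 100% of cells in G2M. CDK1 was 6.77 times higher in cluster 7 than in cluster 6 of untreated WM989 and 11.8 times higher in cluster 7 than in cluster 5 under treatment. PIF1, a DNA helicase, showed ratios of 7.66 and 9.20. UBE2C, which supplies ubiquitin to the APC/C, showed 4.69 and 6.03. Cluster 7 was also higher in FAM83D, a spindle protein (4.49 and 5.83), TOP2A, the topoisomerase that untangles sister chromatids (4.61 and 5.22), HJURP, the chaperone of the centromeric histone CENPA (3.31 and 4.18), and KPNA2, an importin (2.21 and 4.04). CCNB1 (0.702 and 1.07), CDC20, the activator of the APC/C (0.758 and 0.949), and PTTG1 (0.783 and 0.937) differed little or were lower in cluster 7. The log2 ratios of the 43 genes correlated between the experiments at r = 0.971, which is across genes of separate cells and not over replicates. Both experiments used the same cell line, and their clusters had been defined on these counts. The genes of this paragraph were chosen after their values were seen.

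**Figure D1:**
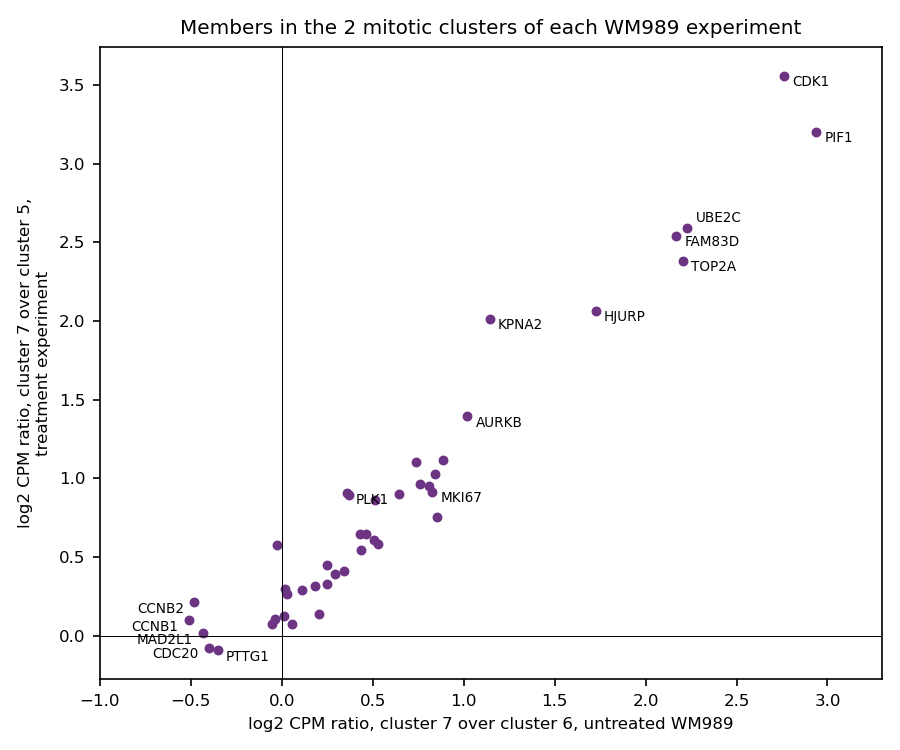
Each point is a mitotic gene; the x axis is the log2 ratio of CPM in cluster 7 over cluster 6 of untreated WM989, and the y axis the log2 ratio in cluster 7 over cluster 5 of the treatment experiment. PIF1, CDK1, UBE2C, FAM83D and TOP2A lie far to the upper right, and CCNB1, CDC20 and PTTG1 lie near or below 0 on both axes.

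Treatments were compared on counts summed over the cells of a library, tested with edgeR's quasi-likelihood test with r1 and r2 as a block and Benjamini-Hochberg adjustment over all genes tested. A gene is called at an adjusted p under 0.05. Levels of single genes per library in these comparisons are CPM scaled by TMM, edgeR's correction for composition. Summed levels are CPM without TMM. The 3 comparisons share the Control libraries. In summed counts, fewer cells in mitosis and less mitotic mRNA per cell cannot be told apart.

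Mitotic genes of every role were lower with PI3Ki. Over all cells, 25 of the 43 members fell and none rose, beside 6.83% of 18389 genes called lower and 5.83% called higher. All 43 changes were negative, with a median of -0.23 and a range of -0.43 to -0.05 on the log2 scale, while the median over all genes was 0.003. At an unadjusted p under 0.05, 33 members were lower and 0 higher, beside 4631 of 18389 genes in either direction. DESeq2 called 25 lower, beside 902 of 18389 genes. Both PI3Ki libraries lay below both Control libraries for 39 members, and for the other 4 the libraries overlapped. The share of all genes without overlap was not computed, so the count of 39 has no background. In the same fit all 4 markers of the primed state fell (median -1.58), and of 6 melanocyte lineage genes 3 rose and 1 fell (median 0.26). The part of these genes in the result was not tested.

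Of the CDK1 switch, 3 of 6 members fell. CCNB1 stood at 114 and 112 CPM in Control r1 and r2 and at 90.8 and 97.3 CPM with PI3Ki. The groups did not overlap, and edgeR put the change at -0.27 (SE 0.065, adjusted p = 0.00855). CDK1 was at 49.8 and 55.4 CPM in Control and at 43.5 and 46.7 with PI3Ki. The PI3Ki libraries were lower and edgeR gave -0.22 (SE 0.066, adjusted p = 0.0277). CCNB2, the second B-type cyclin, fell by 0.35 on the log2 scale.

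Among the mitotic kinases, 4 of 7 fell. PLK1, the kinase whose promoter is shown above, had 44.6 and 38.4 CPM in Control and 37.6 and 36.5 CPM with PI3Ki. Its PI3Ki libraries were lower, but its change of -0.16 (SE 0.080) did not pass (edgeR, adjusted p = 0.209). AURKA, which organises the spindle poles, fell by 0.32, NEK2, a centrosome kinase, by 0.30, and the checkpoint kinases BUB1B and BUB1 by 0.30 and 0.29 on the log2 scale.

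The checkpoint and APC/C group had 2 of 4 members lower, CDC20 at -0.31 and PTTG1 at -0.26. Of the centromere and kinetochore genes, 2 of 5 fell, CENPE, a motor that carries chromosomes to the spindle equator, by 0.38 and CENPF by 0.31 on the log2 scale. Of the kinesins, 3 of 6 fell, namely KIF14 (-0.32), KIF4A (-0.27) and KIF23 (-0.23).

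Spindle assembly genes were the role with the most calls, 6 of 8. PRC1, which bundles the microtubules of the spindle midzone, had 129 and 130 CPM in Control and 91.7 and 101 CPM with PI3Ki. This was the largest fall of any member, -0.43 (SE 0.067, edgeR, adjusted p = 0.000146), and its libraries did not overlap. ASPM and DLGAP5 fell by 0.33 and 0.32, HMMR by 0.25, and NUSAP1 and TPX2 by 0.22 each on the log2 scale.

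ANLN and ECT2, the cytokinesis genes, both fell. ANLN, the scaffold of the contractile ring, had 64.9 and 73.8 CPM in Control and 49.3 and 53.9 CPM with PI3Ki, without overlap (-0.43, SE 0.063, edgeR, adjusted p = 7.9e-05). ECT2, which activates RhoA at the division site, fell by 0.28. MKI67 went from 277 and 289 CPM to 212 and 222 CPM. Its libraries were apart by more than their spread (-0.38, SE 0.067, edgeR, adjusted p = 0.000461), and TOP2A fell by 0.23. DEPDC1, a mitotic regulator, had 45.5 and 48.8 CPM in Control and 34.7 and 36.3 CPM with PI3Ki (-0.41, SE 0.063, edgeR, adjusted p = 0.000124).

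Without TMM, 2963 of 18389 genes were called lower with PI3Ki over all cells, against 1256 with it. The count of 25 members rested on the library pairs and the scaling. With any 1 Control or PI3Ki library left out it was lower, as was the count over all genes. Over all fits with 1 library left out, PRC1 ran from -0.50 to -0.37 and MKI67 from -0.41 to -0.36. CCNB1 ran from -0.34 to -0.19 and CDK1 from -0.29 to -0.16. The member count was 10 without the block, beside 388 of 18389 genes, and 38 without TMM. Under this last setting the median over all genes moved to -0.10.

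**Figure D2:**
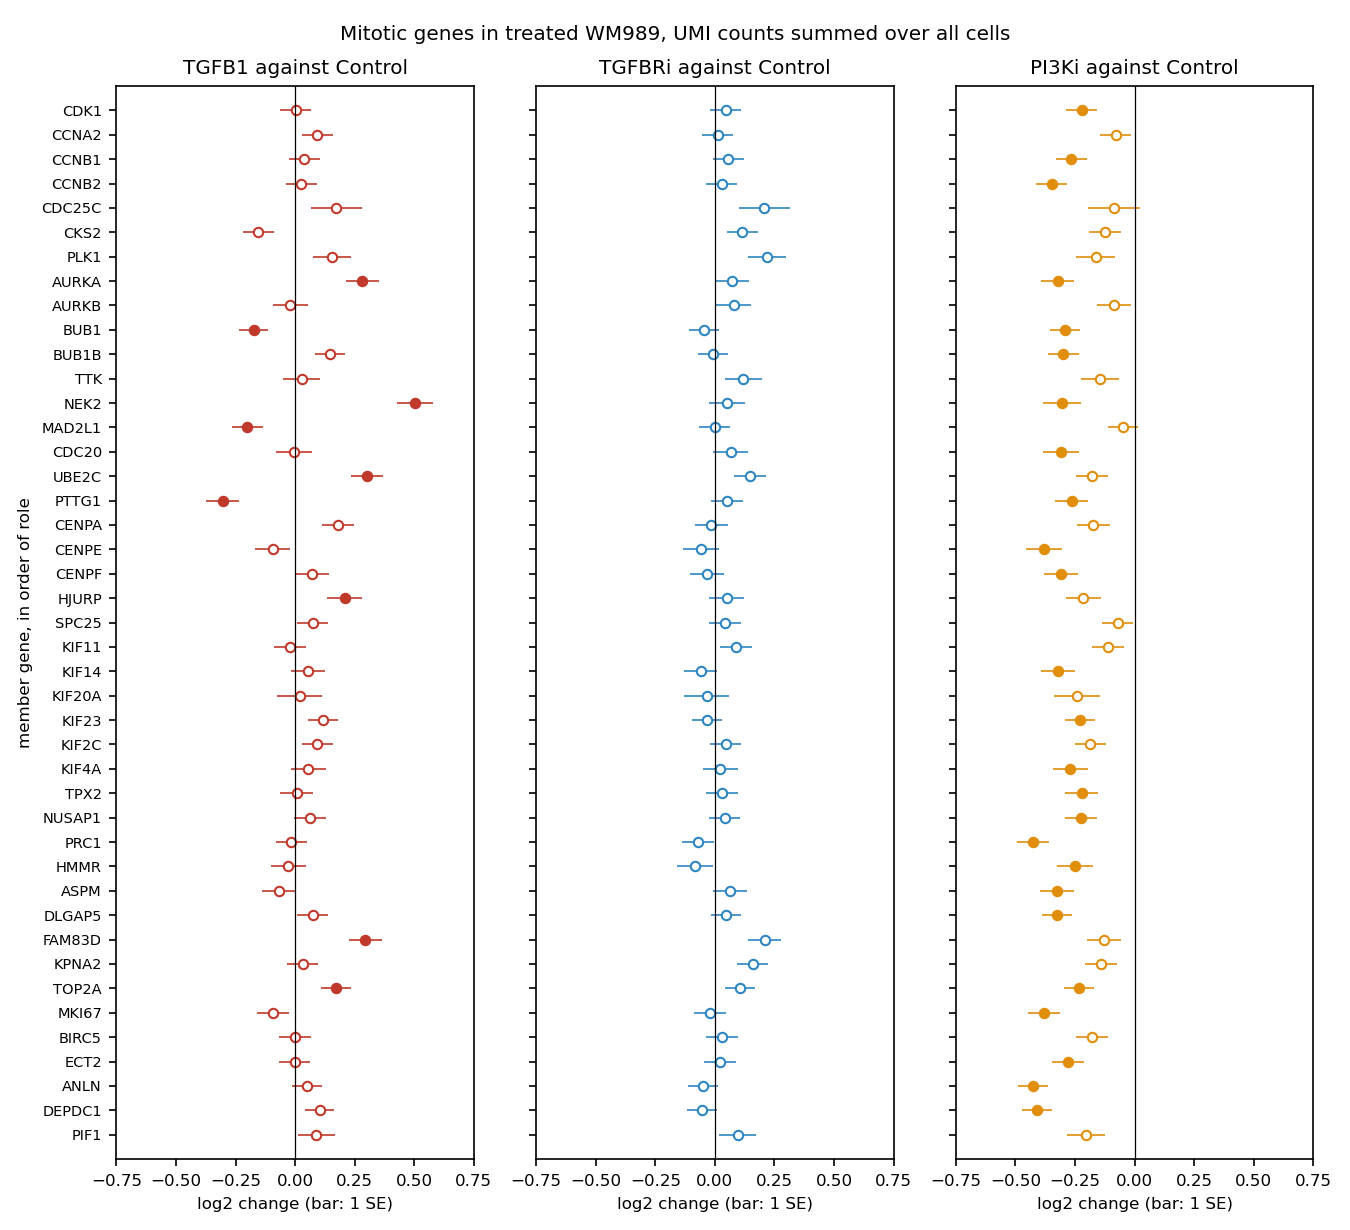
Log2 change against Control (x axis) with bars of ±1 SE for each mitotic gene, over all cells, in a panel each for PI3Ki, TGFB1 and TGFBRi; filled points passed an adjusted p of 0.05. With PI3Ki all 43 points lie left of 0 and 25 are filled, with TGFB1 9 are filled on both sides of 0, and with TGFBRi none is filled.

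The share of cells in G2M was lower with PI3Ki as well. It was 29.3% and 29.8% in Control r1 and r2 and 22.6% and 23.8% with PI3Ki, a difference of -6.38 percentage points, and -6.73 and -6.04 within r1 and r2. An exact two-sided permutation test of 2 libraries against 2 gave p = 0.33, the smallest it can give. Summed over the members, the level was 3829 and 3900 CPM in Control and 2985 and 3065 CPM with PI3Ki. Phase had been called on these same counts, so a fit of G2M cells is no independent test of the members. When only G2M cells were summed, an analysis chosen after seeing the data, 4 members fell, beside 3.96% of 15094 genes. These were ANLN (-0.29), PRC1 (-0.28), DEPDC1 (-0.26) and BUB1B (-0.25), and the median over the members was -0.08, beside -0.01 over all genes. Without TMM scaling the same cells gave member medians of -0.17 in r1 and -0.19 in r2. In drug-susceptible cells alone 6.22% of 17914 genes fell, and 2825 genes did so without TMM. Of the members 25 fell there, with the same number in each role and a median of -0.24. Without Control r1, PI3Ki r1 or PI3Ki r2 this count of members was lower, as was the count over all genes. It was 12 without the block, beside 321 of 17914 genes, and 39 without TMM.

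**Figure D3:**
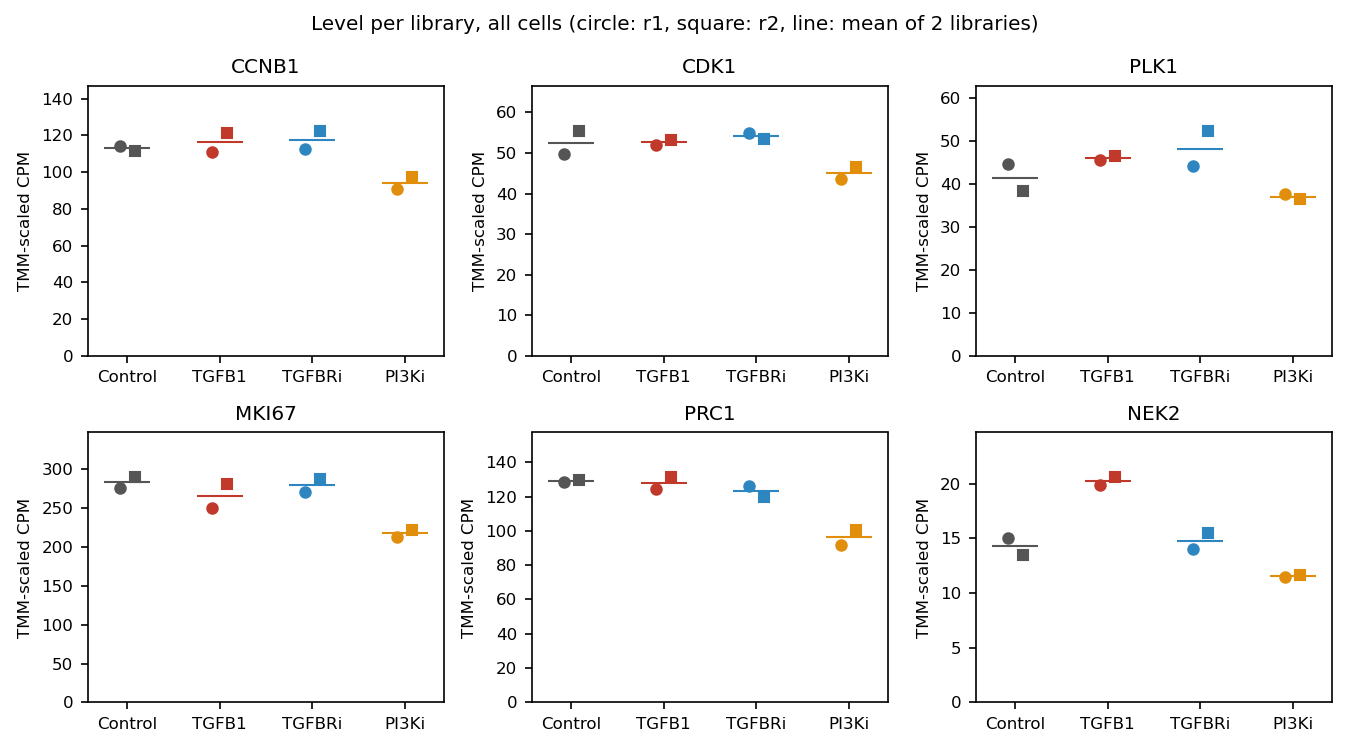
TMM-scaled CPM (y axis, from 0) of CCNB1, CDK1, PLK1, MKI67, PRC1 and NEK2 in each of the 8 libraries of the treatment experiment, as a circle for r1 and a square for r2 of Control, TGFB1, TGFBRi and PI3Ki, with a line at their mean. PRC1 and MKI67 are lower in both PI3Ki libraries, and NEK2 reaches 19.9 and 20.6 CPM in the TGFB1 libraries.

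TGFB1 moved single mitotic genes in both directions. Over all cells 6 of 43 members rose and 3 fell, beside 16.3% of genes called higher and 12.7% called lower, and the members' shares were below these. The median over the members was 0.05, and 29 changes were positive and 14 negative. In the same fit 3 of 4 markers of the primed state rose (median 1.37) and 4 of 6 melanocyte lineage genes fell (median -0.46), whose part was not tested. NEK2 had 15.0 and 13.5 CPM in Control and 19.9 and 20.6 CPM with TGFB1. Its groups did not overlap, and its change of 0.50 (SE 0.075, edgeR, adjusted p = 1.77e-05) was the largest. UBE2C rose from 116 and 118 CPM to 145 and 143 CPM (0.30, SE 0.066, edgeR, adjusted p = 0.00121). FAM83D, which brings kinases to the spindle, rose from 17.1 and 17.7 to 19.99 and 22.8 CPM (0.29, SE 0.070, edgeR, adjusted p = 0.00256). AURKA (0.28), HJURP (0.21) and TOP2A (0.17) were the others that rose.

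PTTG1 was the member that fell most with TGFB1, from 316 and 308 CPM in Control to 253 and 253 CPM (-0.30, SE 0.069, edgeR, adjusted p = 0.0016). MAD2L1, the checkpoint protein that sequesters CDC20, fell from 90.9 and 93.1 to 83.9 and 76.3 CPM (-0.20, SE 0.065, edgeR, adjusted p = 0.0214). BUB1 fell from 41.7 and 40.6 to 36.2 and 36.6 CPM (-0.17, SE 0.062, edgeR, adjusted p = 0.0391). The core of the switch was not called. CCNB1 was at 111 and 121 CPM (0.04, edgeR, adjusted p = 0.715), CDK1 at 52.0 and 53.2 (0.00, adjusted p = 0.992), PLK1 at 45.7 and 46.7 (0.15, adjusted p = 0.162) and MKI67 at 250 and 281 CPM (-0.09, adjusted p = 0.323), of which PLK1 alone lay above both of its Control libraries. The count of 6 that rose was lower without Control r2 or TGFB1 r1, as was the count over all genes. Over all fits with 1 library left out, NEK2 ran from 0.39 to 0.61 and UBE2C from 0.24 to 0.35. Without the block the count was 3, beside 2161 of 18389 genes.

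In drug-susceptible cells, 3 members rose with TGFB1, namely AURKA (0.26, edgeR, adjusted p = 0.0136), NEK2 (0.25, adjusted p = 0.0351) and FAM83D (0.22, adjusted p = 0.0408), beside 8.56% of genes. PTTG1 fell (-0.22, edgeR, adjusted p = 0.0295), beside 6.32%. The count of 3 was lower without Control r2, either TGFB1 library or either PI3Ki library, as was the count over all genes. Over all fits with 1 library left out, NEK2 ran from 0.14 to 0.35 and FAM83D from 0.16 to 0.28. The count was 0 without the block and 1 in DESeq2, beside 775 and 1019 of 17914 genes. Within G2M cells, as chosen after seeing the data, 8 members rose, beside 12.4% of genes. NEK2 was at 0.56, UBE2C at 0.37, FAM83D at 0.35 and HJURP at 0.34. Since phase had been called on these counts, this fit is no independent test of the members. The share of cells in G2M was 26.8% and 28.7% with TGFB1, below the 29.3% and 29.8% of Control (exact permutation p = 0.33). Clusters 5 and 7 made up 9.17% and 11.8% of all cells against 16.6% and 17.0% in Control. Both clusters are drug-susceptible and hold no primed cells. Primed cells were 1577 of 5419 and 1757 of 5615 with TGFB1, and 94 of 4152 and 165 of 3692 in Control. Their part in the lower share of clusters 5 and 7 was not tested.

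Primed cells showed a different picture under TGFB1. Of the 43 members, 28 rose in primed cells and none fell, beside 6.21% of 10930 genes called higher and 7.09% called lower. The median change was 0.55, against 0.00 over all genes. At an unadjusted p under 0.05, 36 members were higher and PTTG1 lower, beside 2667 of 10930 genes in either direction. TGFB1 libraries lay above both Control libraries for 40 members, and the same share over all genes was not computed. PLK1 stood at 25.0 and 21.99 CPM in primed cells of Control and at 54.5 and 50.9 CPM with TGFB1. This change of 1.19 (SE 0.179, edgeR, adjusted p = 2.93e-06) was the largest. CCNB1 went from 81.9 and 64.4 to 138 and 135 CPM (0.92, SE 0.146, edgeR, adjusted p = 7.14e-06), MKI67 from 175 and 179 to 258 and 277 CPM (0.60, SE 0.124, adjusted p = 0.000429), and CDK1 from 39.4 and 38.4 to 54.1 and 56.8 CPM (0.51, SE 0.166, adjusted p = 0.0333). None of these groups overlapped.

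By role, 3 of 6 members of the CDK1 switch rose, with CCNA2, the cyclin of S and G2, at 0.84. Of the mitotic kinases 5 of 7 rose, with BUB1B at 1.01 and NEK2 at 0.86. The centromere genes CENPA (0.74), SPC25, a part of the NDC80 complex (0.65), CENPE (0.44) and CENPF (0.40) rose, 4 of 5. So did CDC20 (0.58) and UBE2C (0.59) among 4 genes of the checkpoint and APC/C, and the kinesins KIF2C, a microtubule depolymerase (0.77), KIF23 (0.67) and KIF11, which pushes the poles apart (0.66), among 6. Of the spindle assembly genes 6 of 8 rose, and TOP2A (0.81), MKI67 and BIRC5, the survivin of the chromosomal passenger complex (0.48), made 3 of 3. Neither cytokinesis gene was called. PTTG1 was the only member with a negative value, at 236 and 221 CPM against 297 and 250 in Control (-0.26, edgeR, adjusted p = 0.196).

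Primed cells of Control and of TGFB1 were mostly in different clusters. With TGFB1, 1548 and 1706 of 1577 and 1757 primed cells in r1 and r2 were in cluster 4, whereas in Control 89 and 159 of 94 and 165 primed cells were in cluster 10. Of the primed cells in cluster 4 of the TGFB1 libraries, 28.5% and 28.3% were in G2M, and the members summed to 3868 and 4005 CPM. In cluster 10 of Control 23.6% and 20.8% were in G2M, with 2816 and 2878 CPM. The primed cells found in cluster 10 with TGFB1, 29 and 51 cells, had 6.90% (exact 95% interval 0.846 to 22.8) and 7.84% (2.18 to 18.9) in G2M and 1387 and 1711 CPM, below Control. A fit of cluster 10 alone, chosen after seeing the data, tested 41 members, of which all had negative values with TGFB1. Of these 11 fell, beside 1.67% of 9481 genes, and none rose, with ANLN at -1.88, TOP2A at -1.77, CDK1 at -1.63 and MKI67 at -1.25 and a median of -1.02. CDK1 rested on 2 and 10 UMIs in cluster 10 of TGFB1 r1 and r2. At an unadjusted p under 0.05, 28 members were lower and 0 higher, beside 1319 of 9481 genes in either direction. Control had only 5 and 6 primed cells in cluster 4, with 4962 and 4707 summed CPM, and cluster 4 was not fitted alone. The sign within cluster 10 was thus opposite to that over all primed cells. Cluster membership was itself called on these counts. AXL and EGFR, markers of the primed state, were 0.83 and 0.89 higher in primed cells with TGFB1, and NGFR was 3.28 lower on the log2 scale, while NT5E (0.24) did not pass. Of 6 melanocyte lineage genes 5 fell in primed cells with TGFB1, with a median of -0.94. The 8 markers of other cell types summed to 3.11 to 15.7 CPM per library in primed cells of this experiment, with CD3E and KRT5 at 0. Most of this was PECAM1, an endothelial gene, at 9.56 CPM in primed against 0.137 CPM in drug-susceptible cells over all libraries. VWF, also endothelial, was at 0.787 and 0.281 CPM, and PTPRC, a leukocyte gene, at 0.0384 and 0.0994 CPM. The part of these genes in the result was not tested.

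**Figure D4:**
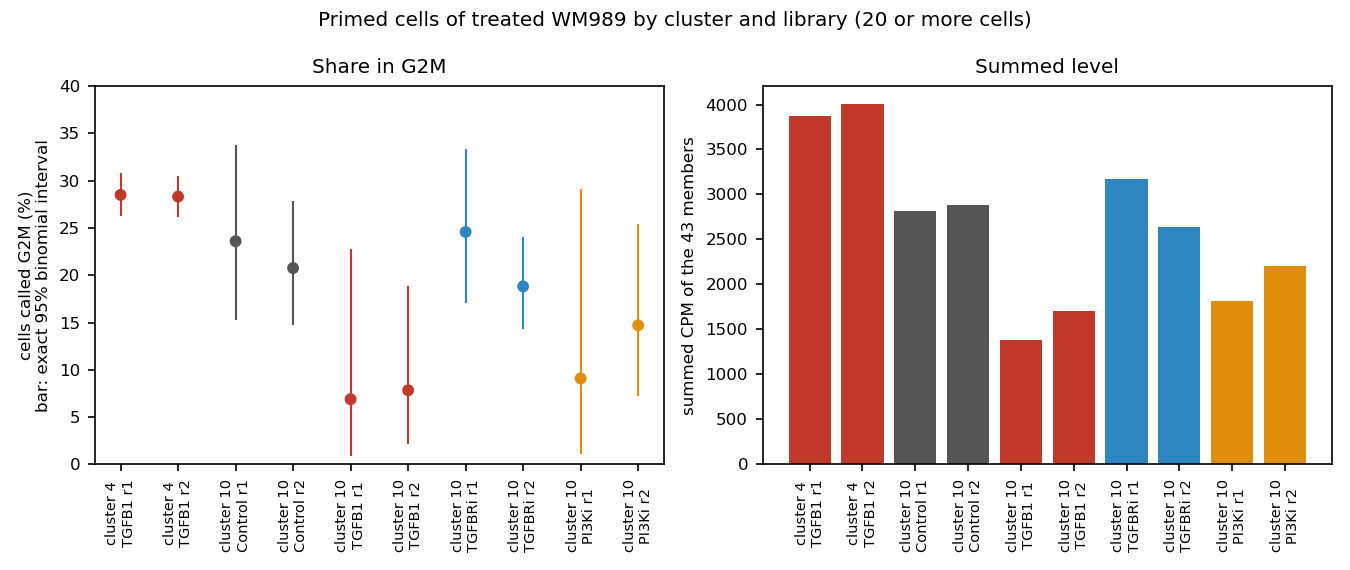
Percent of primed cells in G2M with its exact 95% interval, and summed CPM of the 43 mitotic genes, as bars, for primed cells of cluster 4 and cluster 10 in each library of the treatment experiment with at least 20 such cells. Cluster 4 of the TGFB1 libraries has 28.5% and 28.3% in G2M, and cluster 10 of the same libraries 6.90% and 7.84%.

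The count of 28 was lower without any 1 of the Control and TGFB1 libraries, as was the count over all genes. The median change over the members was 0.50 to 0.61 with 1 library left out. In DESeq2 the count was 12, beside 309 of 10930 genes. The difference of the TGFB1 change between primed and drug-susceptible cells was tested as an interaction with the library as a block, also chosen after seeing the data. It was higher in primed cells for 36 members, beside 5.49% of 18502 genes, with a median of 0.59 over the members and 0.04 over all genes. PLK1 (1.122), CCNB1 (1.03) and BUB1B (1.01) differed most, and KIF14, ECT2, KIF20A, CDC25C, PTTG1, TTK and ANLN were not called.

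With PI3Ki, primed cells were few, 25 and 70 per library, and 5 members fell, beside 1.32% of genes. UBE2C had 116 and 139 CPM in Control and 79.7 and 64.3 with PI3Ki (-0.91, edgeR, adjusted p = 0.0062), and PTTG1 had 297 and 250 CPM against 143 and 187 (-0.64, adjusted p = 0.022). PRC1 (-0.81, edgeR, adjusted p = 0.0258), CENPE (-1.03, adjusted p = 0.0458) and TPX2 (-0.73, adjusted p = 0.0129) were the others. The median over the members was -0.51, with 39 negative and 15 at an unadjusted p under 0.05, beside 1223 of 10930 genes. In the same cells 4 of 6 melanocyte lineage genes rose (median 1.12) and, of 4 markers of the primed state, AXL (-2.75) and NGFR (-1.74) fell while NT5E (-0.43) and EGFR (0.91) did not pass. The part of these genes was not tested. The interaction was lower in primed cells for UBE2C alone (-0.80, edgeR, adjusted p = 0.0049), beside 0.859% of genes. The count of 5 was lower without any 1 of the Control and PI3Ki libraries, as was the count over all genes. It was 3 in cluster 10 alone, beside 74 of 9481 genes. Without TMM it was 3 and without the block 2, beside 106 and 66 of 10930 genes.

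No mitotic gene was called with TGFBRi, over all cells, in drug-susceptible cells or in primed cells, beside 2.53%, 2.81% and 0.375% of genes called in either direction. At an unadjusted p under 0.05, edgeR gave 4, 5 and 2 members, beside 2395 of 18389, 2388 of 17914 and 944 of 10930 genes. DESeq2 called 0 members in each. Over all cells the changes ran from -0.08 to 0.22 with a median of 0.04, and PLK1, at 44.2 and 52.4 CPM, had the largest (0.22, edgeR, adjusted p = 0.195). CCNB1 was at 113 and 122 CPM, CDK1 at 55.0 and 53.5 CPM and MKI67 at 270 and 288 CPM, which overlapped Control in each case. G2M cells made up 29.1% and 31.0% (exact permutation p = 1). Without TGFBRi r1, some members were called over all cells and in drug-susceptible cells, and more of all genes were called there as well.

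Genes that act around the members were counted in the same fits. The regulators FOXM1 and MYBL2, transcription factors of G2 genes, and WEE1, the kinase that restrains CDK1, were not called with PI3Ki. FOXM1 had 61.6 and 64.2 CPM in Control and 57.3 and 64.3 with PI3Ki (-0.05, edgeR, adjusted p = 0.677), and MYBL2 76.4 and 67.2 against 72.5 and 70.0 CPM (-0.01, adjusted p = 0.961). WEE1 rose with TGFB1, from 30.1 and 28.8 to 34.6 and 34.9 CPM over all cells (0.24, edgeR, adjusted p = 0.008). In drug-susceptible cells it was lower with TGFB1, at 27.9 and 28.2 CPM against 29.9 and 28.7 CPM in Control. Of the other 8 CDK1 inhibitory kinases and phosphatases CDC25A (-0.33) and PPP2R2A (-0.19) fell over all cells. Among all genes 16.3% were called higher and 12.7% lower there. In primed cells WEE1 (0.71) and MYBL2 (0.71) rose with TGFB1, and FOXM1 did not pass (0.37, edgeR, adjusted p = 0.102).

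Of 41 further kinetochore, condensin and segregation genes, 17 fell with PI3Ki, beside the 6.83% of all genes, with NUF2 (-0.45), KNL1 (-0.38), TROAP (-0.37) and PBK (-0.37) the most, and a median of -0.18. The median was -0.04 for 17 APC/C genes, of which UBE2S, a ubiquitin chain elongating enzyme, fell (-0.25), and -0.05 for 13 regulators of the MuvB and FOXM1 group, of which TFDP1 fell (-0.24). A single call in lists of these sizes is near the 6.83% of all genes. None of 9 CDK1 inhibitory kinases and phosphatases was called, with 4 at an unadjusted p under 0.05. S-phase genes had 1 of 20 lower (UHRF1, -0.23) and 1 higher (CCNE1, 0.24), with a median of -0.05, which is near the shares of all genes (6.83% and 5.83%). With TGFB1, 8 of 20 S-phase genes fell over all cells, beside 12.7% of all genes, while in drug-susceptible cells 1 fell and 3 rose (median -0.09), beside 6.32% and 8.56%. Among those that fell over all cells were the replicative helicase genes MCM2 (-0.34) and MCM4 (-0.27), and RRM2 rose there (0.24). Of the 41 kinetochore genes 3 rose and 4 fell, below the 16.3% and 12.7% of all genes. Of the 17 APC/C genes ANAPC2 (0.56) and ANAPC13 (0.20) rose and CDC16 (-0.59) and ANAPC1 (-0.31) fell, and of the 13 MuvB and FOXM1 regulators TFDP1 fell (-0.22). These calls are not above the same shares of all genes. In primed cells, 13 of 41 kinetochore genes rose with TGFB1, with CDCA2 at 0.96 and SPC24 at 0.93, as did 7 of 20 S-phase genes, with UHRF1 at 0.86, beside 6.21% of all genes. The medians there were 0.48 and 0.38. Of 16 APC/C genes tested CDC27 rose (0.39) and CDC16 fell (-0.56), near the 6.21% and 7.09% of all genes. With TGFBRi, CDC25B, a phosphatase that activates CDK1, rose (0.29), and no other gene of these lists was called over all cells.

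Primed cells of untreated WM989 were less often in G2M, 15.6% against 30.1% of drug-susceptible cells, and most members were lower in them when the wells were pooled. Over wells the share in G2M ran from 10.9% to 23.5% (median 16.2%) in primed and from 25.3% to 34.0% (median 29.1%) in drug-susceptible cells, and primed cells had the lower share in 8 of 8 wells, which are chip lanes and not separate cultures. States had been drawn from clusters of these counts, so the ratios below carry no test. The median log2 ratio of CPM, primed over drug-susceptible, was -0.30, with 35 members lower and 8 higher. It was -0.44 within r1, -0.33 within r2 and -0.22 as a median over wells. Wells differed, from well 1 with 42 of 43 members lower in primed cells (median -1.05) to wells 4 and 5, where 22 and 23 members were higher and 21 and 20 lower (medians 0.03 and 0.04). The summed level there was 3052 and 3570 CPM in primed against 2966 and 3483.3 CPM in drug-susceptible cells.

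MKI67 had 160 CPM over primed cells against 233 over drug-susceptible cells and was lower in primed cells of 8 of 8 wells, which ran from 97.8 to 238 CPM (median 182) and from 188 to 302 CPM (median 232). PLK1 (35.2 and 50.6 CPM) was lower in 7 of 8 wells and CDK1 (44.4 and 54.8 CPM) in 7 of 8. CCNB1 was closer, at 75.1 CPM among primed cells against 82.8 CPM among the others, and was lower in 5 of 8 wells. AURKB, the kinase of the chromosomal passenger complex, was the lowest of all in primed cells, at 39.6 against 87.9 CPM, a ratio of 0.451, and its 8 primed values (28.3 to 54.7, median 42.0 CPM) did not overlap the drug-susceptible ones (72.8 to 98.8, median 89.1 CPM). Among members with at least 20 CPM in a state, CCNA2 (ratio 0.604), CDC20 (0.605) and BIRC5 (0.637) followed, each lower in 8 of 8 wells.

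HJURP went the other way. Primed cells had 48.2 CPM of it against 25.6 CPM in the drug-susceptible state (ratio 1.89), and it was higher in 8 of 8 wells, which ran from 34.1 to 60.1 CPM (median 54.0) and from 19.3 to 36.7 CPM (median 24.0). NEK2 (ratio 1.36) and UBE2C (1.18) were higher in 7 of 8 wells, and ECT2 (1.15) and KIF23 (1.05) in 5 of 8. Within G2M cells alone the median log2 ratio turned to 0.43, with 40 of 43 members higher in primed cells and AURKB, CDC20 and PIF1 lower, and the members summed to 9275 CPM in those cells when primed and to 7037 CPM when drug-susceptible. Melanocyte lineage genes summed to 202 CPM over primed cells and to 4880 CPM over the others. The 8 markers of other cell types summed to 16.7 to 30.6 CPM per well among primed cells and to 0.476 to 0.874 CPM among the others, mostly PECAM1, an endothelial adhesion gene, at 22.8 CPM in primed cells, while PTPRC, the pan-leukocyte marker, was at 0.026 CPM and CD3E and KRT5 were at 0. The part of these genes in the ratios was not tested.

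In WM983B the states were close over all cells. The median log2 ratio was 0.05, with 26 members higher and 17 lower in primed cells, while 30.9% of primed and 40.9% of drug-susceptible cells were in G2M. Of the drug-susceptible cells, 90 formed cluster 3, of which 87.8% were in G2M and which had 158 CPM of the 4 primed-state markers, against 67.0 CPM in cluster 1, the other drug-susceptible cluster, and 184 to 227 CPM in the primed clusters. Without cluster 3, left out after seeing the data, 34.2% of drug-susceptible cells were in G2M. Within G2M cells the median was 0.41, with 42 of 43 members higher in primed cells and CKS2, a small subunit of CDK complexes, lower. Without cluster 3 this median was 0.21, with CKS2 and KPNA2 lower, and that over all cells was 0.01. Among members with at least 20 CPM in a state, CKS2 (0.769), AURKB (0.833), CENPF (0.903), KPNA2 (0.907) and PTTG1 (0.910) had the lowest ratios over all cells. ANLN (1.16), UBE2C (1.14), TTK (1.14), CDC20 (1.13) and KIF2C (1.123) had the highest there. KIF20A, under 20 CPM in both states, had a ratio of 1.17. CCNB1 was at 143 and 147 CPM, PLK1 at 57.0 and 58.5, CDK1 at 102 and 107, and MKI67 at 338 and 335 CPM in primed and drug-susceptible cells. In the treatment experiment, all libraries were pooled. Among members with at least 20 CPM in a state, the lowest ratios were those of CKS2 (0.697), AURKB (0.717) and KPNA2 (0.757). The highest were those of NEK2 (2.02), HJURP (1.51) and UBE2C (1.43). Most of these primed cells came from the TGFB1 libraries.

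**Figure D5:**
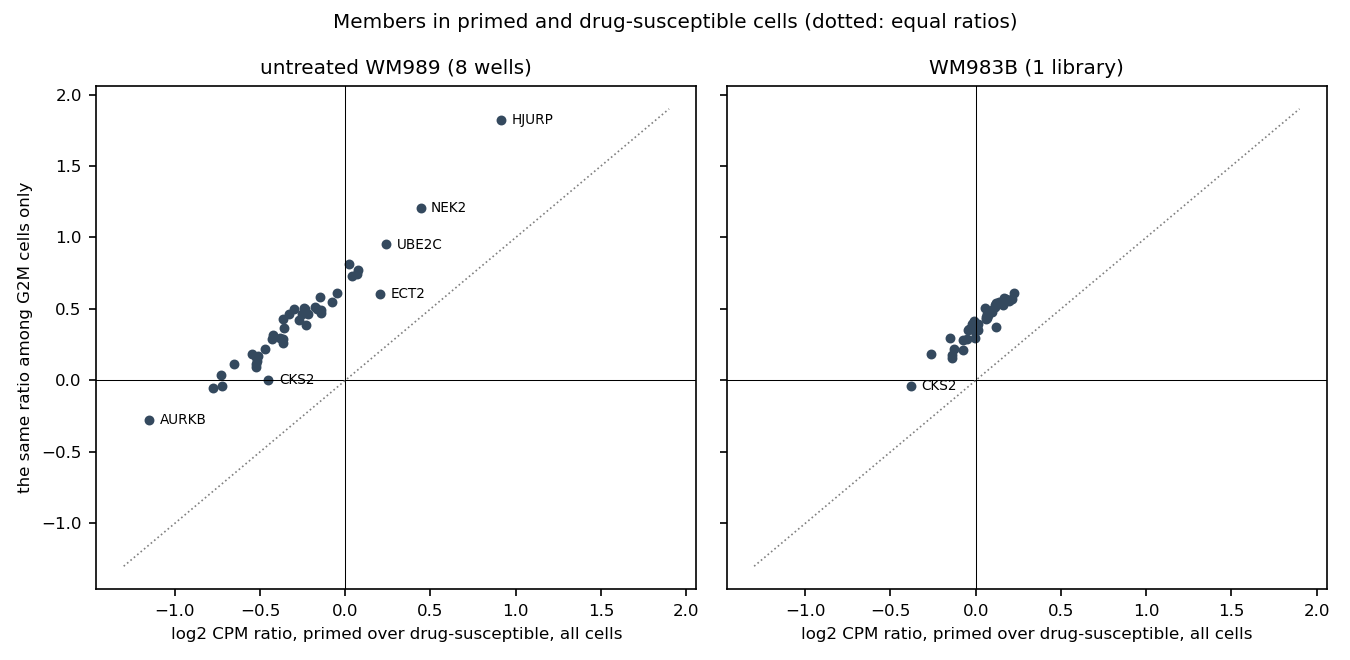
Log2 ratio of CPM in primed over drug-susceptible cells for each mitotic gene over all cells (x axis) and within G2M cells (y axis), in untreated WM989 and in WM983B; the dotted line marks equal ratios. Most WM989 points lie left of 0 on the x axis and above 0 on the y axis, with HJURP the farthest to the right and AURKB the farthest to the left.

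Chromatin at the members was open in every sort. The start of all 43 genes, taken from the GENCODE MANE Select or canonical transcript on hg38, lay under a called peak in all 12 ATAC-seq libraries, while 60.5% to 62.5% of 20007 protein-coding genes had a peak there. The deposited fold enrichment of each peak over its surroundings was compared between each sort and Mix, which the 3 comparisons share. At CCNB1, whose start is at base 69167150 of chromosome 5, Mix had 55.6, 53.7 and 46.0, EGFR-NGFR-High 71.7, 62.4 and 58.1, NGFR-High 62.0, 59.0 and 61.1, and EGFR_High 52.9, 53.4 and 50.9. The EGFR-NGFR-High and NGFR-High libraries were all above Mix, and the EGFR_High libraries overlapped it. At MKI67, Mix had 37.2, 36.8 and 42.1, EGFR-NGFR-High 33.0, 33.6 and 34.7, NGFR-High 30.6, 43.3 and 33.8, and EGFR_High 28.6, 36.4 and 34.8. There EGFR-NGFR-High and EGFR_High were below Mix in every library, and NGFR-High overlapped it. PLK1 had 36.3, 41.9 and 41.6 and CDK1 72.6, 62.2 and 78.9 in Mix, and every sort overlapped these values.

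All EGFR-NGFR-High libraries were above all Mix libraries at 4 members (CCNA2, CCNB1, PTTG1 and ECT2) and below at 2 (NUSAP1 and MKI67), beside 10.9% and 2.16% of 12916 genes with a peak at the start. EGFR_High was above at 0 members and below at 8 (NEK2, HJURP, SPC25, KIF4A, NUSAP1, HMMR, MKI67 and PIF1), beside 3.68% and 10.5%. NGFR-High was above at 8 (CCNB1, CDC25C, MAD2L1, UBE2C, KIF11, KIF20A, TPX2 and DLGAP5) and below at 3 (NUSAP1, ASPM and PIF1), beside 24.2% and 1.72%. An exact two-sided permutation test of 3 libraries against 3 cannot give a p under 0.1, which each of these genes reached. The median ratio to Mix over the members was 1.04, 0.916 and 1.04 for EGFR-NGFR-High, EGFR_High and NGFR-High, beside 1.06, 0.959 and 1.11 over 11597 genes with a peak in every library. NUSAP1, a spindle microtubule binder, was below Mix in all 3 sorts, with 98.6, 93.8 and 92.4 in Mix, 91.9, 73.7 and 73.4 in EGFR-NGFR-High, 82.8, 89.4 and 88.6 in EGFR_High and 89.1, 82.7 and 92.1 in NGFR-High. The read depth behind these peaks is unknown, and libraries listed 213412 to 271153 peaks.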

How the data were processed

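Droplet scRNA-seq was run on untreated WM989 and WM983B cells and on treated WM989 cells, and ATAC-seq on sorted WM989 cells. The authors aligned reads to hg38 with Cell Ranger (version not given in the sources used here), removed cells with many genes or a high mitochondrial percent, and deposited UMI counts per cell with clusters, states, phases and phase scores. The deposited percent and score columns were read as cell annotation. ATAC-seq reads were aligned by the authors with Bowtie2 2.3.4.1 and peaks called per library with MACS2 2.1.1.20160309, and the deposited peak lists give fold enrichment as a ratio and q-values as −log10.

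Counts were summed per library and tested with edgeR 4.0.16 (R 4.3.3; TMM, filterByExpr, quasi-likelihood, replicate block), with all 8 libraries in each fit. Same-numbered libraries deviated together (r = 0.256 to 0.365 over 6 pairs), so r1 and r2 pair the treatments. DESeq2 1.42.0 was an alternative. In simulated counts for the TGFB1 comparison, a subset of genes above 10 CPM was altered. Every gene had the same small set spread, and no replicate effect was put in. Log2 changes of 0.5 and 1 were recovered in 100% and 100% of the altered genes over all cells (18389 genes simulated). In primed cells (10930 genes simulated) they were recovered in 39% and 94%. Smaller changes were not simulated, and the rates hold only for this set spread. Doublets were not called again, and intervals cover counting error only. The members and gene lists were chosen with earlier results of these data known. CCNB1, PLK1, CDK1 and MKI67 were always named, with the 3 called members of largest change in each direction at 10 CPM or more, and, for states, the 5 at each end at 20 CPM or more; genes beyond these were chosen after their values were seen.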

Additional observations from a re-analysis of the deposited data

Results flagged for a closer look

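The change with TGFB1 differed between primed and drug-susceptible cells for 36 of the 43 mitotic genes, all with the higher value in primed cells, in a test of the difference itself (edgeR, interaction of treatment and state). The same test for PI3Ki gave 1 gene, UBE2C, which was lower in primed cells. Primed cells of Control and TGFB1 were mostly in different clusters, as given above, and the part of this in the difference was not tested.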

How the results depend on the processing

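Counts below are of mitotic genes called by edgeR, lower for PI3Ki, higher for TGFB1 and in either direction for TGFBRi, and the cause of each move was not tested. Counts over all genes in the same direction moved with the setting as well. For fits with a library left out no counts are given. With no replicate block, the pairing of r1 and r2 was ignored, and the counts were 10 (PI3Ki lower) and 3 (TGFB1 higher) over all cells. They were 12 and 0 in drug-susceptible cells, and 2 and 25 in primed cells. Over all genes these fits called 388 and 2161 of 18389, 321 and 775 of 17914, and 66 and 618 of 10930. Without TMM the PI3Ki counts were 38, 39 and 3 over all, drug-susceptible and primed cells. Genes called lower there were 2963 of 18389, 2825 of 17914 and 106 of 10930. The primed TGFB1 count was 21, beside 492 of 10930 genes. G2M cells alone, with phase called on these counts, gave 4 with PI3Ki, beside 598 of 15094 genes. In primed cells, cluster 10 alone gave 3 lower with PI3Ki, beside 74 of 9481 genes. With TGFB1 it gave 0 higher but 11 lower, beside 99 and 158 of 9481 genes. DESeq2 gave 1 (drug-susceptible, TGFB1), 4 (primed, PI3Ki) and 12 (primed, TGFB1), beside 1019 of 17914, 105 of 10930 and 309 of 10930 genes. Fits with no filter gave 1 (drug-susceptible, TGFB1) and 32 (primed, TGFB1), beside 1464 of 29027 and 910 of 24830 genes. Leaving out 1 library at a time, where the lone library of a group is assumed to vary like the others, gave over all cells 7 to 31 for PI3Ki, 1 to 9 for TGFB1 and 0 to 3 for TGFBRi. In drug-susceptible cells it gave 7 to 33, 0 to 4 and 0 to 3, and in primed cells 1 to 6, 7 to 31 and 0 to 0.

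The median over members of the primed TGFB1 change was 0.50 to 0.61 with a library left out and -1.02 in cluster 10 alone. There all 41 members tested had negative values. Of the named members called over all primed cells, CDK1 (-1.63), MKI67 (-1.25) and UBE2C (-0.99) passed in cluster 10. CCNB1 (-0.95), DEPDC1 (-1.57), FAM83D (-0.92), NEK2 (-1.32) and PLK1 (-0.91) did not pass. PLK1 rested on 0 and 12 UMIs in cluster 10 of TGFB1 r1 and r2. The difference from Control in the share of all cells in mitotic clusters was -6.33 (TGFB1), -1.38 (TGFBRi) and -4.78 (PI3Ki) percentage points. These clusters hold no primed cells, whose share was higher with TGFB1, and the part of this was not tested. With a library pair left out the G2M difference was -2.55 to -1.14, -0.20 to 1.24 and -6.73 to -6.04. The state median of untreated WM989 was -0.44 in r1, -0.22 over wells and 0.43 in G2M cells, and that of WM983B 0.41 in G2M cells, 0.0145 without cluster 3 and 0.21 in G2M cells without cluster 3. For ATAC-seq, numbers did not pair the libraries (r = -0.056 to 0.099 over 18 pairs). The members apart from Mix were 12, 20 and 17 in EGFR-NGFR-High, EGFR_High and NGFR-High when compared within numbers as a replicate block, beside 27.1%, 27.8% and 42.3% of 12916 genes, and 10 to 22, 16 to 24 and 16 to 23 with a library number left out, beside 28.8% to 43.7%, 32.8% to 44.05% and 41.7% to 56.4% of genes.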
